A study of Mus musculus with 86 samples.

Results

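Large peritoneal macrophages (LPM) of C57BL6/J mice were kept for 7 days in M-CSF (4 ng/ml) with TGFB1 (1 ng/ml) or with the vehicle of TGFB1, and H3K27ac was mapped by ChIP-seq in 1 library of each. The deposited TGFB1 list holds 10427 entries and the vehicle list 11973. The regions described here are the 4932 entries of the TGFB1 list (47.3%) that no vehicle entry overlapped by 1 bp or more, and they are called gained entries. The remaining 5495 entries of the TGFB1 list are called shared, and the 6478 vehicle entries that no TGFB1 entry overlapped are called vehicle-only. Gained entries were thus chosen by the deposited H3K27ac lists themselves, present in the first and absent from the second, so neither is a result. With 1 library per condition the choice has no replicate check, and the whole series holds 251722 entries in 13 H3K27ac lists.

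RNA was read from 8 cultures of LPM from C57BL6/J mice, grown for 7 days with 4 ng/ml of IL-34 or of M-CSF. Each ligand was combined with TGFB1 or its vehicle, or with all-trans retinoic acid (ATRA, 2 µM) or its vehicle DMSO, with 1 library per combination. Untreated C57BL6/J microglia, LPM, small peritoneal macrophages (SPM), bone marrow-derived macrophages (BMDM) and thioglycollate-elicited macrophages (TGEM) gave 1 H3K27ac list each. For each population 2 RNA libraries were used, the first labelled polyA. The second is labelled Ribozero for microglia, LPM and SPM, and has no such label for BMDM and TGEM. For microglia, LPM and SPM the 2 libraries thus differ in RNA preparation. A further library of untreated microglia was not used. The labels used do not state ages, pooling of animals or what the TGFB1 vehicle was.

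H3K27ac is an acetyl mark on histone H3 found at active enhancers and promoters. TGFB1 binds a receptor pair, TGFBR2 and TGFBR1, which phosphorylates SMAD2 and SMAD3, and these join SMAD4 and enter the nucleus to bind DNA, often beside factors that already mark a cell type. SMAD7, SMAD6 and PMEPA1 are feedback inhibitors of that signal. In the brain, microglia need TGF-beta to keep their characteristic gene expression, and LPM carry another programme fitted to the peritoneal cavity.

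All gained entries are 156 bp wide, and all vehicle entries 159 bp. No gained entry lies nearer than 3005 bp to a transcript start of the expression table, so promoters of the transcripts in that table are outside these regions. The header of the list names an intergenic filter, but 53.6% of gained entries lie inside a gene span, so which filter was applied is not known. RefSeq's promoter windows (GRCm38.p6, 250 bases before to 50 after a start) also cover starts that the table does not use, and 44 gained entries overlapped such a window. They were used to show sequence, since no genome was at hand, and the 6 printed below were chosen after the values were seen. Each holds at least 50 bases and has a nearest gene that was called higher with TGFB1 or that is among the genes selected for naming. Capitals mark a SMAD element, CAGACA or its complement TGTCTG, searched on both strands. Each sequence runs 5′ to 3′ on the strand of the RefSeq transcript.
Slco4a1, alternative start, chr2:180455995-180456050, plus strand: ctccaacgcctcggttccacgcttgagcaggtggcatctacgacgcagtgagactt
Pwwp2b, start of Gm32486, chr7:139296972-139297127, minus strand: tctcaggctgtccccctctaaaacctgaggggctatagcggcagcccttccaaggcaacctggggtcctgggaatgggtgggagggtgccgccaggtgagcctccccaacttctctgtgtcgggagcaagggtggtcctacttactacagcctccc
Mmd, start of Gm42089, chr11:90225687-90225818, minus strand: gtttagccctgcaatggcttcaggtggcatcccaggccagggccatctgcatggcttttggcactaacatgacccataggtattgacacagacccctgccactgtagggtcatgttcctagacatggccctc
Smad3, start of Gm51710, chr9:63731358-63731447, plus strand: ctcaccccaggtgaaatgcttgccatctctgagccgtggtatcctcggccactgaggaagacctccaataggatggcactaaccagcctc
Runx3, alternative start, chr4:135152295-135152353, plus strand: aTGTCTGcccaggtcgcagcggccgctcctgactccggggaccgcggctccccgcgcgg
Jun, start of Junos, chr4:95094563-95094616, plus strand: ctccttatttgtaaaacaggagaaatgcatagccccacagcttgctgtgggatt

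The entry at Slco4a1 lies 5006 bp before the start used in the table and 818108 bp from the nearest vehicle entry, and the RNA of this organic anion transporter was among those that rose most. The entry at Pwwp2b lies 48567 bp from the start of that gene and 814 bp from a vehicle entry, and the entry at Mmd lies 41 bp from a vehicle entry. Pwwp2b rose with TGFB1 by 1.67 on the log2 scale and Mmd by 1.21 (limma adjusted p = 0.000218 and 0.00455). The Pwwp2b call was lost without the IL-34 TGFB1, IL-34 vehicle or M-CSF vehicle library, and the Mmd call without the IL-34 TGFB1, M-CSF TGFB1 or M-CSF vehicle library. The SMAD element was present in 20 of the 49 promoter windows that a gained entry overlapped (40.8%), in 16 of the 85 that a shared entry overlapped (18.8%), and in 21.0% of all 32851 windows. An AP-1 site, TGANTCA on both strands, was present in 14.3%, 10.6% and 7.81% of the same windows. The PU.1 core GAGGAAGT was present in 6.12% (3 windows), 9.41% and 3.20%. These 3 are among 13 motifs searched. MEF2, C/EBP, IRF, RUNX, MiT/TFE, RAR and GC box motifs were in a smaller share of windows with a gained entry than of all windows. GATA, NF-kB and a palindromic SMAD motif were in a larger share. A match of letters in a window is a description, not a bound site, and the windows reach beyond the entries.

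Gained entries lay either close beside vehicle entries or far from them. Of the 4932, 1898 had a vehicle entry within 1000 bp, most often 150 to 500 bp away (1051 entries), which places them beside acetylation that the vehicle culture also had. The other 3034 had none within 1000 bp, and 1133 of them (23.0% of all gained entries) were over 50000 bp from the closest. The deposited score, the authors' own value per entry, had quartiles of 24.1, 33.5 and 47.2 in gained entries and a median of 45.7 in shared ones. At the edge of the rule, 268 gained entries lay at most 50 bp from a vehicle entry and scored a median of 43.6, and 435 shared entries overlapped one by at most 50 bp and scored a median of 42.5. Entries on either side of the rule therefore had like scores. The isolated entries are given separately for some of the results only.

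**Figure D1:**
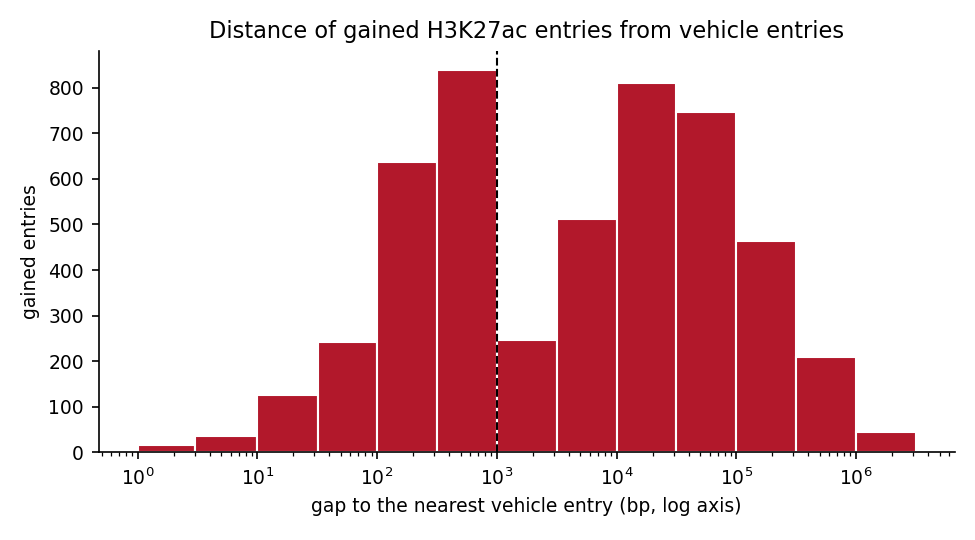
Number of gained entries (vertical axis) by the gap to the nearest vehicle entry in bp (logarithmic horizontal axis, bins of equal width on that axis), with a dashed line at 1000 bp. The counts peak on both sides of the line, with 839 entries between 316 and 1000 bp and 811 between 10000 and 31623 bp.

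Gained entries stood both alone and in runs. Joined at gaps of up to 10000 bp, they formed 3524 runs, of which 2472 held a single entry and 69 held 4 or more. The run with the most entries, 8 of them over 22.2 kb, lay at chr5:31628957-31651153 near Mrpl33. A run of 5 lay upstream of Jun at chr4:95083434-95094616, and 5 lay within F11r at chr1:171441791-171453004. By the spans in the expression table, 53.6% of gained entries lay inside a gene, against 49.6% of shared and 53.6% of vehicle-only entries. Exons and introns were not told apart.

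Gained entries overlapped fresh microglia H3K27ac less often than shared entries did, and also overlapped fresh LPM H3K27ac less often. Of the gained entries, 31.6% overlapped an entry of fresh microglia and 53.2% one of fresh LPM. Shared entries had 45.2% and 80.4%, and vehicle-only entries had 27.2% and 65.0%. Gained entries with no vehicle entry within 1000 bp had 25.05% and 40.7%. These shares are given without a test, since regions of 1 library are not replicates.

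Set against vehicle-only entries, more gained entries lay in microglial and not LPM acetylation, and fewer in LPM and not microglial acetylation. By any overlap with fresh microglia, gained entries (31.6%) were above vehicle-only entries (27.2%), but the isolated ones (25.05%) were below them. Entries in the fresh microglia list and not in the fresh LPM list made up 12.02% of gained entries (593), 13.8% of the isolated ones (418), 6.19% of shared and 6.14% of vehicle-only entries. Entries in the LPM list and not in the microglia list made up 33.6% of gained, 29.4% of isolated, 41.3% of shared and 43.9% of vehicle-only entries. A further 966 gained entries were in both lists and 1714 (34.8%) in neither. Of those in neither, 1173 overlapped H3K27ac of SPM, BMDM or TGEM. That left 541 gained entries (10.97%) in none of the 5 populations, against 1.07% of shared and 4.45% of vehicle-only entries. Of the isolated entries, 45.5% were in neither list and 16.2% in none of the 5 populations. TGEM overlapped the largest share of gained entries among the 5 populations, 71.2%, and its list, with 35121 entries, also covers the most sequence of the 5.

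**Figure D2:**
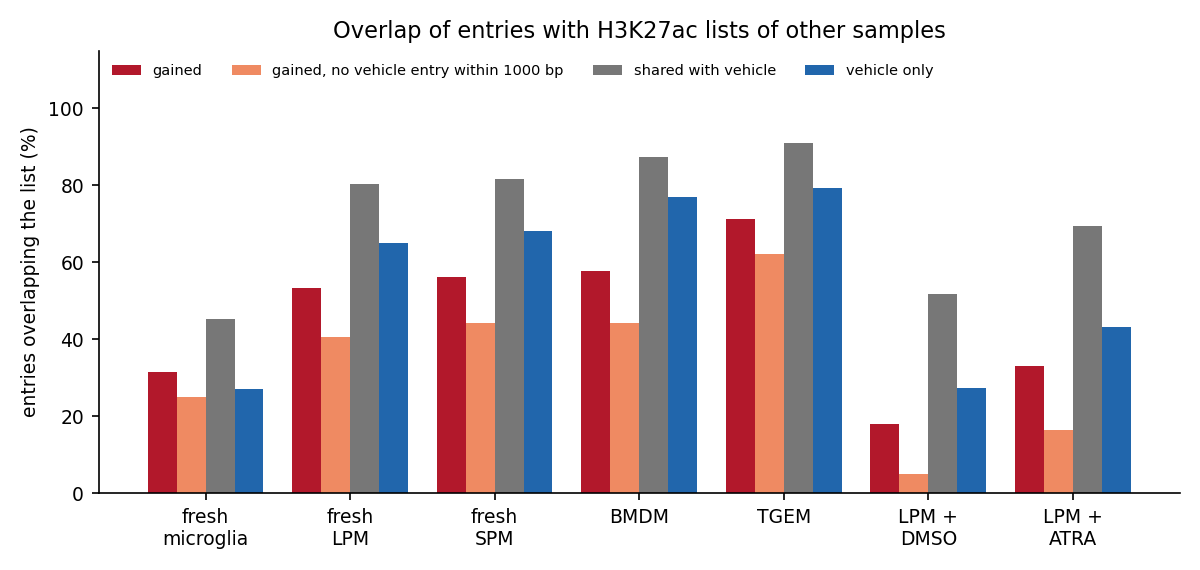
Share of entries in percent (vertical axis) that overlapped each H3K27ac list by 1 bp or more, for the 5 untreated populations and for LPM cultured with M-CSF and DMSO or ATRA. Gained entries overlapped fresh microglia in 31.6% and fresh LPM in 53.2%, below the shared entries (grey) for every list drawn.

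In the other cultures with M-CSF, 18.1% of gained entries overlapped the DMSO list and 33.0% the ATRA list, and 51.6% and 69.4% of shared entries did. For the isolated entries these shares were 5.01% and 16.5%. The DMSO list holds 3963 entries and the ATRA list 6011, against 11973 in the vehicle list. Of all vehicle entries 38.6% overlapped the DMSO list and 55.3% the ATRA list. No difference between these cultures was therefore read from the shares. H3K4me2, a mark of poised and active regulatory regions, was listed in the TGFB1 culture at 21.7% of gained, 26.0% of shared and 18.1% of vehicle-only entries. Its vehicle list holds 873 entries against 8898 with TGFB1, so no change of H3K4me2 was read from these lists. A PU.1 peak of the vehicle culture lay within 500 bp of 58.3% of gained, 75.6% of shared and 69.9% of vehicle-only entries, PU.1 being the factor that macrophage enhancers commonly share. The PU.1 list of the TGFB1 culture has the same content as that of the vehicle and was not used.

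Each gained entry was joined to the nearest gene start within 100000 bp, which gave 2433 genes for 4264 entries, and 668 entries had none. Of these genes 2134 passed the filter on low values and 299 did not. Near gained entries RNA was more often higher than lower with TGFB1. Of the 2134 genes, 222 rose (10.4%, against a background of 3.17% of all 15417 genes tested) and 95 fell (4.45%, against a background of 3.53%). Genes nearest to shared entries also rose above that background, in 147 of 2315 cases (6.35%), and fell in 149 (6.44%). A call needed a Benjamini-Hochberg adjusted p under 0.05 from limma and a log2 fold of at least 1 in size. All 222 were higher, and all 95 lower, with IL-34 and with M-CSF taken singly. So were all 489 genes called higher among all genes tested, and 542 of all 544 called lower. The fitted fold is the mean of these 2 differences, so this marks nothing about the nearest genes. The median log2 fold was 0.03 over these genes and -0.06 over all genes tested, and these small medians changed sign when a TGFB1 library was left out. In bulk RNA, fewer cells of a type and less RNA per cell cannot be told apart.

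The calls rest on a spread that limma shares across genes along a trend, with 3 residual degrees of freedom among single libraries. The prior degrees of freedom of this fit were infinite, so each gene took the spread of the trend in place of its own. The p-values of these calls therefore treat that shared spread as known and do not measure a gene's own spread between libraries. Nothing in the labels ties the libraries to separate animals. Without the M-CSF and DMSO library limma called 1 of the nearest genes higher and 0 lower, and 1 higher and 1 lower among all genes, although 2596 genes had an unadjusted p under 0.05 and the 286 nearest genes with a log2 fold of 1 or more were as many as before. edgeR on recovered reads called 239 higher and 83 lower of the nearest genes, and DESeq2 215 and 69. By a rule with no p, a log2 difference of at least 1 with each ligand, 195 nearest genes were higher (9.14%, background 3.55%) and 73 lower (3.42%, background 3.65%).

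The more gained entries a gene had, the greater was the share that rose. Among tested genes with 1 gained entry 73 of 1220 rose (5.98%) and 62 fell (5.08%), and that rise did not exceed the 6.35% near shared entries. With 2 entries 60 of 510 rose (11.8%), with 3 or 4 entries 73 of 326 (22.4%), and with 5 or more 16 of 78 (20.5%), so the last step was not upward. The shares that fell were 3.92%, 3.37% and 2.56% in those groups. Genes near the isolated entries rose in 180 of 1363 cases (13.2%) and fell in 47 (3.45%). Of 564 tested genes with a gained entry and no vehicle entry of any kind assigned to them, 77 rose and 9 fell. Of 1561 genes with vehicle-only entries and no gained entry, 31 rose and 154 fell.

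Nearest genes of gained entries were also counted by the fresh H3K27ac at the entry, and in each class more rose than fell. Genes near gained entries that overlapped fresh microglia and not fresh LPM rose in 59 of 317 cases (18.6%) and fell in 5. Those near entries in neither list rose in 136 of 793 (17.2%) and fell in 18. Genes near entries in LPM and not microglia rose in 76 of 960 (7.92%) and fell in 57 (5.94%). Those near entries in both lists rose in 40 of 624 (6.41%), close to the 6.35% near all shared entries, and fell in 34. Near shared entries the classes outside fresh LPM also had the larger shares that rose. There, 22 of 204 rose and 9 fell for microglia and not LPM, and 48 of 399 rose and 17 fell for neither list. For LPM and not microglia 68 of 1178 rose and 96 fell, and for both lists 53 of 1122 rose and 59 fell. This contrast is thus not particular to gained entries. A gene with entries of several kinds counts in each.

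**Figure D3:**
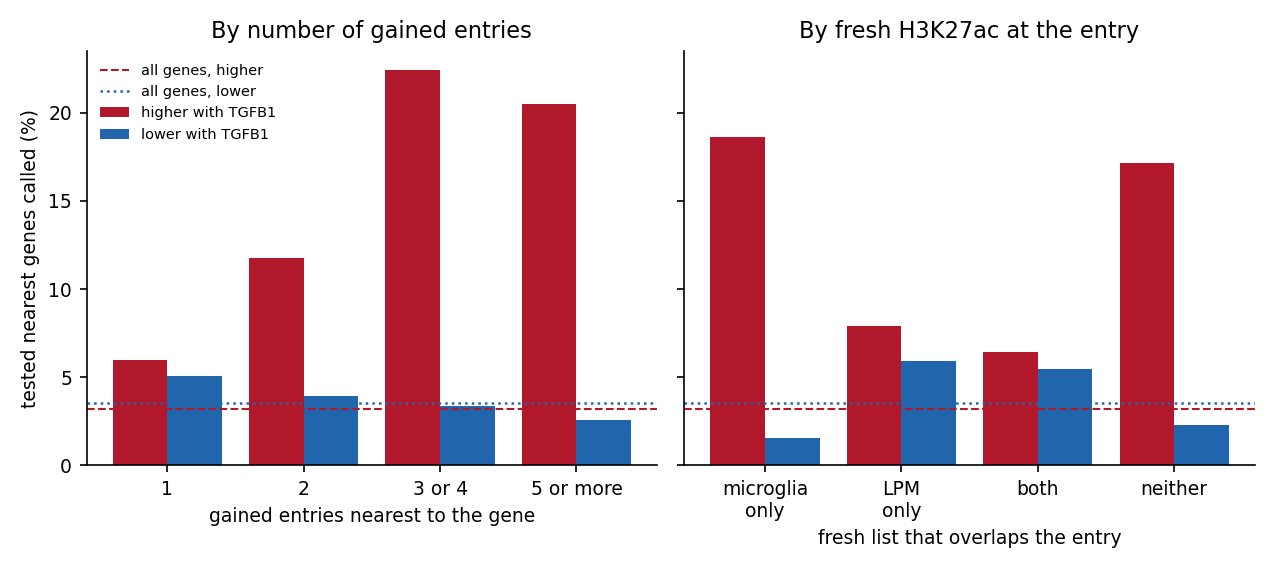
Share of tested nearest genes in percent (vertical axis) called higher (red) or lower (blue) with TGFB1, by the number of gained entries (left) and by the fresh list that overlaps the entry (right). Dashed and dotted lines give the shares over all 15417 genes, 3.17% and 3.53%, and the red bars reach 22.4% for 3 or 4 entries and 18.6% for entries in microglia and not LPM.

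In untreated cells, 389 of 2324 nearest genes were higher in microglia than in LPM (16.7%, against a background of 7.54% of 19313 genes) and 363 lower (15.6%, against a background of 10.8%). Near gained entries in the microglia list and not the LPM list, 171 of 357 genes were higher in microglia (47.9%) and 7 lower. Near shared entries of that class the counts were alike, 101 of 224 higher (45.1%) and 8 lower. Genes near all shared entries also had shares like those near all gained ones, 15.9% higher and 16.0% lower. Leaving out the first LPM library took the 389 to 169. Of the 222 nearest genes that rose with TGFB1, 83 were also higher in microglia than in LPM and 31 lower, and over all 489 genes that rose the counts were 178 and 77. Of the 95 that fell, 49 were lower in microglia and 10 higher, against 262 and 61 of all 544 that fell. These shares are close to those over all genes that changed, so they mark nothing about the nearest genes.

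Feedback inhibitors of TGF-beta had gained entries near 7 of their genes. Of 11 listed inhibitors, all tested, 5 rose and 0 fell with TGFB1, and of those 7, with a median log2 fold of 0.84, 3 rose, namely Smad7, Pmepa1 and Smad6. For this and the gene lists that follow, the background is 2433 of all 24063 genes nearest to a gained entry. Of all genes tested 3.17% rose and 3.53% fell, and of those nearest to a gained entry 10.4% rose and 4.45% fell. Smad7 encodes the inhibitory SMAD that blocks the type I receptor. Its gene signal, scaled to 10000000 reads, was 72.1 (IL-34) and 44.7 (M-CSF) with vehicle and 865 and 963 with TGFB1. The DMSO and ATRA libraries held 31.3 to 62.0, so both TGFB1 libraries stood apart from the other 6. Smad7 rose by 3.98 ± 0.36 (SE) on the log2 scale (limma adjusted p = 4.85e-26). It had 4 gained entries and no vehicle entry, at 24784, 24122 and 3635 bp before the start and 20593 bp after it, and none overlapped fresh microglia or LPM, although Smad7 RNA was higher in fresh microglia than in LPM by 6.62 ± 0.49.

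Pmepa1 encodes a membrane protein that curbs SMAD signalling. Its signal was 107 and 88.6 with vehicle and 843 and 1100 with TGFB1, and it rose by 3.29 ± 0.35 (limma adjusted p = 1.04e-18). Of its 7 gained entries 6 overlapped fresh microglia H3K27ac and 0 overlapped fresh LPM. The highest, with a score of 111.6, lies at chr2:173258412-173258567 inside the gene, 18044 bp past the start and 77712 bp from the nearest vehicle entry. Smad6, a second inhibitory SMAD, had 23.8 and 11.8 with vehicle and 122 and 127 with TGFB1 and rose by 2.82 ± 0.47 (limma adjusted p = 1.89e-07). Its entry at chr9:63989059-63989214 lies within the gene, in TGEM acetylation but in neither fresh microglia nor fresh LPM.

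Of 10 listed receptors and SMADs 5 had gained entries, 17 in all, and 1 of them rose. Tgfbr1, the type I receptor kinase, had 3216 and 2808 with vehicle and 10635 and 10196.5 with TGFB1, a rise of 1.79 ± 0.39 (limma adjusted p = 0.000143), and this call was lost without the IL-34 TGFB1 or the M-CSF vehicle library. The entry at chr4:47304036-47304191 scored 116.6, lay 180 bp from a vehicle entry, and overlapped microglia but not LPM acetylation. Smad3, which carries the signal to DNA, had 6 gained entries, all within the gene and all overlapping fresh LPM. Its signal was 378 and 499 with vehicle and 237 and 370 with TGFB1, which did not pass the test (log2 fold -0.55 ± 0.32, limma adjusted p = 0.464). Tgfbr2, the type II receptor, had 4 gained entries, all in fresh microglia acetylation and none in LPM, and values of 1935 and 2387 with vehicle and 3151 and 3190 with TGFB1 (limma adjusted p = 0.554). Gained entries thus stood near pathway genes that rose and near others that did not pass the test.

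Genes downstream of TGF-beta had 12 of 21 tested members near gained entries, and 6 of those 12 rose and 0 fell, with a median log2 fold of 1.66. Spp1, the secreted matrix protein osteopontin, had 195 and 376 with vehicle and 11442 and 7442 with TGFB1, a rise of 5.08 ± 0.32 (limma adjusted p = 1.69e-52). Its 3 gained entries, 54960 to 9938 bp before the start, overlapped TGEM acetylation, and neither fresh microglia nor fresh LPM. Tgfbi, a matrix protein named for its induction by TGF-beta, rose from 323 and 332 to 1821 and 2578 (log2 2.72 ± 0.32, limma adjusted p = 3.93e-15) and had 4 gained entries, all of them in BMDM and TGEM acetylation. Id1 and Id3, which bind and block helix-loop-helix factors, rose by 3.39 ± 0.42 and 2.97 ± 0.38, and Hpgd, which breaks down prostaglandins, by 2.43 ± 0.48. The Hpgd call was lost without the IL-34 TGFB1 library.

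**Figure D4:**
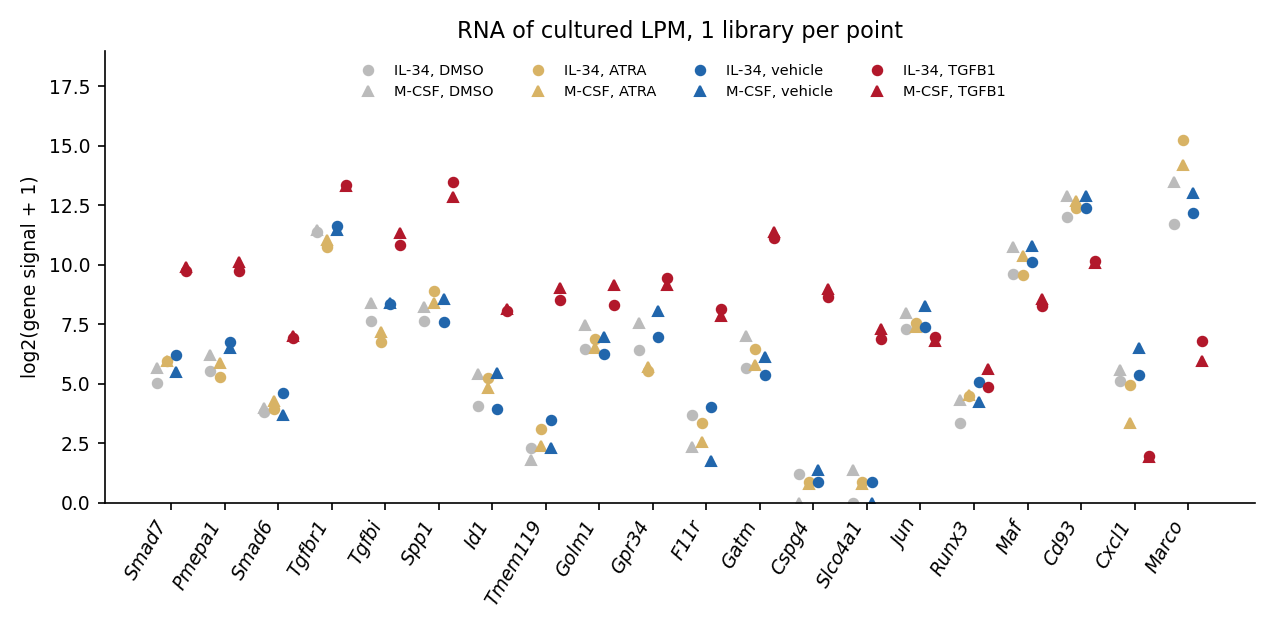
Gene signal of 20 genes near gained entries on a log2(value + 1) scale (vertical axis), with 1 point for each of the 8 cultured LPM libraries, circles for IL-34 and triangles for M-CSF. TGFB1 (red) lies above the other 6 libraries for Smad7, at 865 and 963, and below them for Marco, at 109 and 61.8, where ATRA (ochre) reaches 39334.

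Microglia markers were among the genes with gained entries. Of 26 listed markers 23 were tested, 11 rose and 1 fell, and 11 were nearest to a gained entry. Of those 11, with 23 gained entries between them, 7 rose and 0 fell, where 10.4% of all nearest genes tested rose. The 7 include Nav3, which had 4 reads in each TGFB1 library and whose call was kept in 2 of 15 alternative runs. Tmem119, a membrane protein used to identify microglia, had 10.2 and 3.92 with vehicle, 2.44 to 7.63 with DMSO or ATRA, and 363 and 524 with TGFB1. It rose by 5.88 ± 0.52 (limma adjusted p = 1.38e-26). The 2 gained entries assigned to it by nearest start, at chr5:113804987-113805142 and chr5:113805837-113805992, lie 4712 and 5562 bp before the start. Both overlapped fresh LPM and not fresh microglia H3K27ac. Tmem119 RNA was higher in fresh microglia than in LPM by 7.38 ± 0.47. Gained entries not assigned to Tmem119 also lay within 100000 bp of its start. Those beginning at 16.196, 16.806, -34.568 and -42.063 kb along the gene's strand overlapped fresh microglia H3K27ac. Those beginning at -59.315, -72.261 and -72.672 kb did not.

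Golm1, a Golgi membrane protein, rose from 76.4 and 125 to 319 and 574 (log2 2.12 ± 0.34, limma adjusted p = 3.78e-08). All 4 of its gained entries lie in the gene and overlapped fresh microglia, and 2 of them also overlapped fresh LPM. Those 2 lay 120 and 312 bp from a vehicle entry. Gpr34, a lysophospholipid receptor, rose by 1.79 ± 0.34, a call lost without either IL-34 library of the pair. Fcrls rose by 2.11 ± 0.41 and Olfml3 by 2.15 ± 0.41, and both calls were lost without either M-CSF library of the pair, Olfml3 also without the IL-34 DMSO library and with DESeq2.

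Nav3 and Sparc had gained entries with RNA near the detection limit. Nav3 had 4 gained entries, all within the gene, and the lowest-scoring of them, at chr10:109973002-109973157 with a score of 28.8, overlapped neither fresh microglia nor fresh LPM. The other 3, at chr10:109985912-109986067, chr10:109986560-109986715 and chr10:109987394-109987549 scored 81.0, 86.0 and 81.0, overlapped fresh microglia and not LPM, and lay over 1000000 bp from any vehicle entry. Nav3, a cytoskeleton-associated protein, had 4 reads in each TGFB1 library and 0 in the other 6 libraries. Its call (limma adjusted p = 0.0434) was kept in 2 of 15 alternative runs. It was lost with edgeR, with either other pseudocount and when any TGFB1 or vehicle library was left out. Sparc, a matrix glycoprotein of microglia, had 2 and 3 reads with TGFB1 and 0 with vehicle, and its DMSO and ATRA libraries were higher, at 5.94 to 23.5. Sparc passed the test with a pseudocount of 0.1 and not otherwise. P2ry13, a microglial nucleotide receptor with 1 gained entry, had 75.5 and 40.0 with vehicle and 29.0 and 40.1 with TGFB1 and did not pass the test.

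The nearest genes that rose most included several with almost no RNA in the vehicle cultures. Cspg4, the cell-surface proteoglycan NG2, had 1 and 2 reads with vehicle and 414 and 724 with TGFB1, a ratio of 379 per mapped read with a 95% interval of 129 to 1839 that covers counting error alone. Its single gained entry, chr9:56871095-56871250, lies in the gene 318457 bp from the nearest vehicle entry and overlapped no H3K27ac list of the 5 populations. Slco4a1 had 1 and 0 reads with vehicle and 121 and 223 with TGFB1, a ratio of 343 (95% interval 61.2 to 13605). Ednra, the endothelin receptor type A, had 0 reads in both vehicle libraries and 80 and 113 with TGFB1, at least 64.2-fold higher against a floor of 3 reads over the group. Its 2 entries, like the one in Cspg4, lay in none of the 5 populations.

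Tmeff1, a membrane protein with a growth factor-like domain, rose from 7.64 and 12.5 to 890 and 837 (log2 6.32 ± 0.46, limma adjusted p = 5.41e-39). Gatm, the first enzyme of creatine synthesis, rose from 39.9 and 69.0 to 2262 and 2644 (log2 5.52 ± 0.34, limma adjusted p = 1.63e-56). Gcnt2, a branching enzyme of sugar chains, rose by 5.86 ± 0.47, Ch25h, the cholesterol 25-hydroxylase, by 5.77 ± 0.50, and Flt1, a VEGF receptor, by 5.19 ± 0.61. F11r, junctional adhesion molecule A, had 15.3 and 2.35 with vehicle and 286 and 228 with TGFB1 and rose by 5.12 ± 0.52 (limma adjusted p = 1.18e-20). All 5 of its gained entries lie in the first 15365 bp of the gene and overlapped fresh microglia and not fresh LPM acetylation. F11r RNA was higher in fresh microglia than in LPM by 8.25 ± 1.16. Of the 10 genes of this kind, Tmem119, Slco4a1, Gcnt2, Gatm and F11r were called higher in fresh microglia, and the other 5 passed in neither direction.

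**Figure D5:**
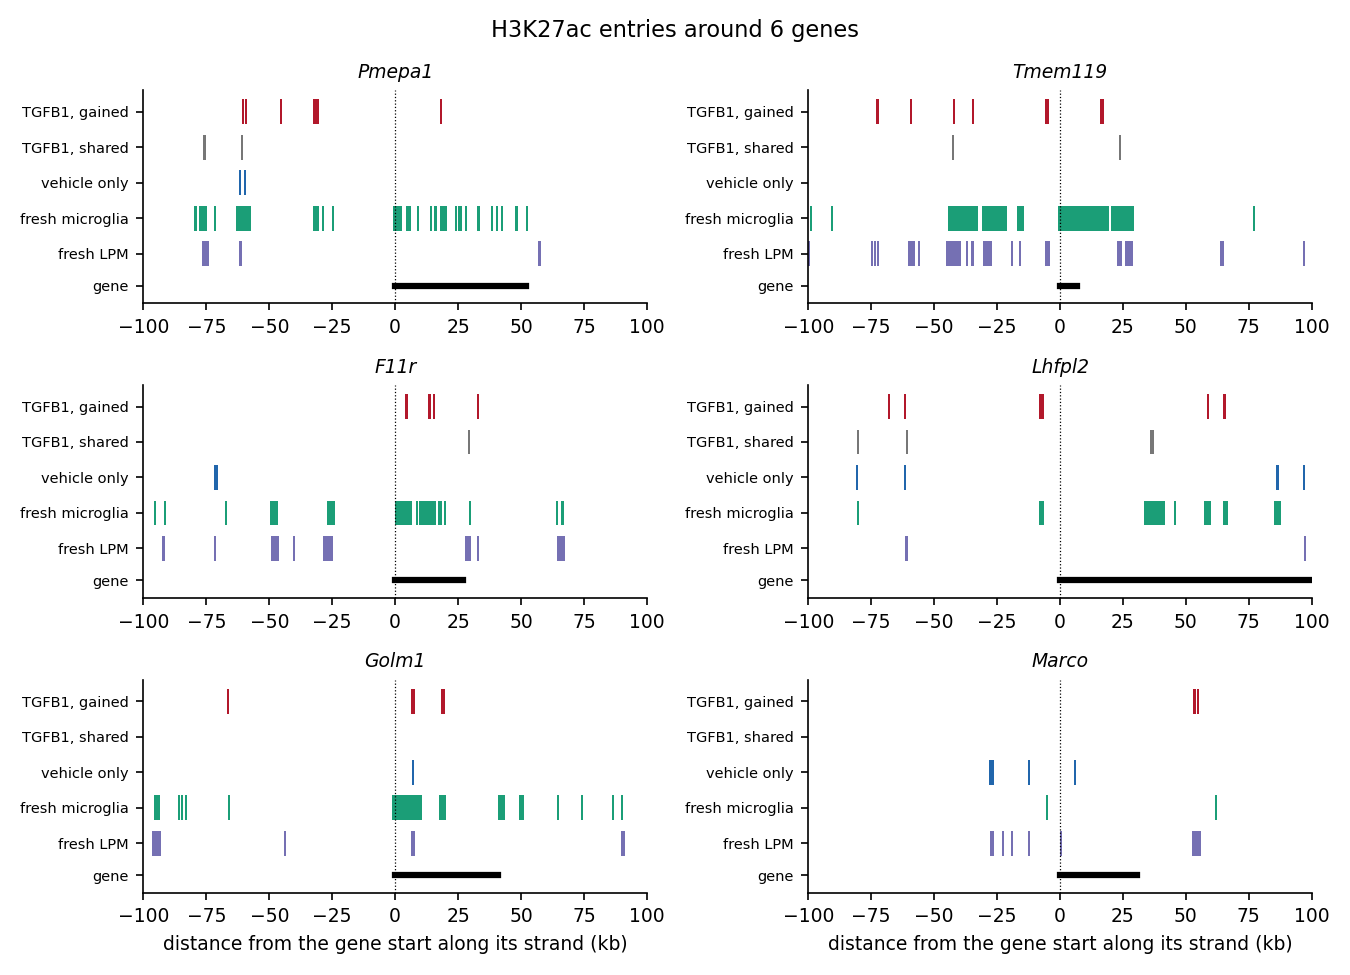
Position of H3K27ac entries around 6 gene starts, with distance along the gene's strand in kb (horizontal axis) and a row each for gained, shared and vehicle-only entries, fresh microglia, fresh LPM and the gene's span, entries under 0.8 kb being drawn at that width. At Pmepa1 6 of 7 gained entries and at F11r all 5 assigned ones fall on fresh microglia entries, while the 3 at Marco fall on fresh LPM entries.

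The number of gained entries did not by itself mark a gene that changed. Gm10532 on chromosome 18 had 9, the most of any gene, and was at 0 to 7.31 in the 8 libraries. Lhfpl2, Runx3 and Ctsh had 8 each. Lhfpl2, a tetraspan membrane protein, had 504 and 488 with vehicle and 2274 and 1852 with TGFB1 (log2 2.05 ± 0.32, limma adjusted p = 1.81e-08), and 6 of its entries overlapped fresh microglia. Ctsh, the protease cathepsin H, rose from 1068 and 985 to 3116 and 2689 (log2 1.495 ± 0.34, limma adjusted p = 0.00043), a call lost when any TGFB1 or vehicle library was left out. Runx3, a transcription factor, had 33.1 and 18.03 with vehicle and 28.0 and 47.8 with TGFB1 and did not pass the test. Jun, an AP-1 subunit with 7 gained entries 31289 to 54869 bp before its start, had 165 and 311 with vehicle and 125 and 111 with TGFB1 (log2 fold -0.94 ± 0.33, limma adjusted p = 0.0659). Plxnc1, Nav2, Ptplad2 and Mtmr7, with 7 each, also missed the threshold, with log2 folds of 0.24, 0.42, 0.54 and 1.07. Mtmr7 passed with edgeR, DESeq2, quantile normalization and the 4 TGFB1 and vehicle libraries alone.

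The highest-scoring gained entries mostly lay close to vehicle entries. Of the 10 with the highest scores, 128.9 to 143.6, 9 had a vehicle entry within 1000 bp, and 9 overlapped both fresh microglia and fresh LPM. Their nearest genes include Ifngr2, an interferon-gamma receptor subunit, Zeb2, a transcription factor, Inpp5d, the phosphatase SHIP1, and Adap2. Of these, Ifngr2, Zeb2, Inpp5d and Adap2 had log2 folds of -0.05, -0.46, 0.91 and 0.36 and did not pass the test, while Syngr1, a vesicle protein, rose by 1.90 ± 0.32 and Adgb, androglobin, by 1.202 ± 0.33. The Adgb call was lost without the IL-34 ATRA, IL-34 TGFB1, M-CSF TGFB1 or M-CSF vehicle library. Among the 10 highest in the microglia list and not the LPM list, the nearest genes Pmepa1, Tgfbr1, Extl3 and Klhl25 rose. Extl3, a heparan sulfate enzyme, rose by 1.705 ± 0.32 and Klhl25 by 1.48 ± 0.36. Umps and Tns3 did not pass the test (log2 0.54 and 0.89). The Extl3 call was lost without the M-CSF vehicle library and the Klhl25 call without any of the 4 TGFB1 or vehicle libraries.

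A smaller number of genes with gained entries fell. Marco, a scavenger receptor of peritoneal macrophages, had 4633 and 8385 with vehicle, 3362 to 39334 with DMSO or ATRA, and 109 and 61.8 with TGFB1. It fell by 6.23 ± 0.38 on the log2 scale (limma adjusted p = 1.21e-57), although 3 gained entries lie past the end of the gene, 53162 to 55008 bp from its start. All 3 overlapped fresh LPM and none fresh microglia, and 5 vehicle-only entries were also assigned to Marco. Genes that rose had such entries as well, with 6 at Tgfbr1 and 5 at Lhfpl2. Of 1179 tested genes with gained and vehicle-only entries 97 rose and 73 fell, against 125 and 22 of 955 with gained and no vehicle-only entries. Ccl9, a chemokine, went from 768 and 1900 to 63.8 and 71.0 and fell by 4.15 ± 0.33, and Aoah, which detoxifies lipopolysaccharide, fell by 4.07 ± 0.32. Cxcl1, a neutrophil attractant, fell by 3.97 ± 0.51 and Gda, guanine deaminase, by 3.20 ± 0.36. Kdm6b, a demethylase of H3K27, had 37.3 and 17.2 with vehicle and 2.90 and 2.81 with TGFB1, and its call was lost without the IL-34 vehicle library. She, Slamf7, Vsig8 and Mefv complete the 10 that fell most, and Mefv, with 8 and 7 reads with vehicle and 0 with TGFB1, was not called by edgeR. The Mefv and Vsig8 calls were also lost without the IL-34 DMSO, IL-34 TGFB1 or M-CSF vehicle library, and the Vsig8 call with DESeq2.

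LPM markers with gained entries fell more often than they rose. Of 24 listed markers, 2 rose and 12 fell, where 3.53% of all genes tested fell. Of the 9 near gained entries 1 rose and 5 fell, where 4.45% of all nearest genes tested fell. Cd93, a membrane receptor of myeloid cells, had 5 gained entries, all overlapping fresh LPM, and 8 vehicle-only entries. Its signal was 5404 and 7639 with vehicle and 1146 and 1091 with TGFB1, and it fell by 2.52 ± 0.39 (limma adjusted p = 1.32e-08). Ednrb, the endothelin receptor type B, fell by 2.71 ± 0.32 while Ednra, the type A receptor, was at least 64.2-fold higher. Vsig4, a complement receptor, was the marker that rose (log2 1.26 ± 0.36), a call lost without 6 of the 8 libraries in turn, the M-CSF ATRA and M-CSF TGFB1 libraries excepted, and with no ligand term. Among the 15 core macrophage genes tested 0 rose and 1 fell, Maf, a transcription factor with 1 gained entry, by 2.04 ± 0.33.

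Adhesion genes moved in both directions. Of 19 listed genes for integrins, adhesion and matrix 12 were near gained entries, 3 of which rose and 2 fell. Itgal, the alpha chain of LFA-1, rose from 76.4 and 47.0 to 1055 and 1043 (log2 4.11 ± 0.37, limma adjusted p = 1.51e-26). Itgb5, a partner of the alpha V chain, rose by 2.52 ± 0.37, and both of its gained entries overlapped fresh microglia and not fresh LPM. Lgals3, the lectin galectin-3, fell by 2.64 ± 0.34, and Mmp12, macrophage elastase, by 2.51 ± 0.37, the latter call being lost without either M-CSF library of the pair. Inflammatory cytokine genes had 4 of 18 listed members near gained entries, of which 1, Cxcl1, fell, while 10 of all 18 fell and 0 rose. Of the 12 listed complement genes 0 were nearest to a gained entry, where 2433 of all 24063 genes were, so a count of 0 is near the background.

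The TGFB1 effect did not differ detectably between ligands. limma called 0 of 15417 genes for a difference between the effect with M-CSF and that with IL-34, and 220 had an unadjusted p under 0.05. With 1 library per combination and 2 residual degrees of freedom, it does not show that the ligands act alike.

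The cultures carried macrophage RNA with little sign of other cells. The summed signal of 15 core macrophage genes was 129143 to 272396 over the 8 libraries. B cell markers summed to 1.70 to 15.3, mast cell and eosinophil markers to 0 to 34.8, and mesothelial and fibroblast markers to 0 to 44.4. In the 2 TGFB1 libraries 9 and 10 of the 10 mesothelial and fibroblast markers were at 0, and in the 2 vehicle libraries 9 and 8. T and NK cell markers summed to 77.3 and 101 with TGFB1 and 84.9 and 72.9 with vehicle, and neutrophil markers to 542 and 472 with TGFB1 and 813 and 631 with vehicle, and their part in the results was not tested. Mapped reads per cultured LPM library ranged from 7661540 to 14230300.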

How the data were processed

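H3K27ac, H3K4me2 and PU.1 ChIP-seq lists and RNA-seq tables of macrophages from C57BL6/J, NOD/ShiLtJ and SPRET/EiJ mice were used as deposited. The submitters' processing notes name STAR, Bowtie and HOMER and the mm10 build, with no versions or roles. The lists hold the authors' score per entry, with no scale stated. No source used here says how each list was called. The RNA tables hold a gene signal, which the file headers describe as reads that the authors scaled to a total of 10000000. Low values were whole multiples of 1 read in 100% of cases within 0.1 reads, so reads were recovered for the edgeR and DESeq2 alternatives. Entry starts were converted from the bedGraph convention to 1-based positions.

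Members, gene lists and tests were chosen with earlier results of these data known. Transcripts were reduced to 24063 symbols. limma 3.58.1 (R 4.3.3) with a trend was fitted to log2(value + 1) of the 8 cultured LPM libraries with ligand as a term, and to the 10 libraries of the 5 populations, 1 per population from each of 2 tables with the table as a term, over genes that reached 1 in any library (15417 and 19313). A fold is on that scale and understates the change of low genes. The culture table and the population tables list different transcript lengths, so levels were not compared between them. Named genes were the nearest genes of the 10 highest-scoring gained entries and of the 10 highest found in microglia and not in LPM, the genes with the most gained entries, the 10 with the greatest rise and fall, and list members nearest to a gained entry. The planned choice of sequences needed a genome and was replaced. Python 3.11.15, edgeR 4.0.16 and DESeq2 1.42.0 were also used. The gene fit was tested on simulated data. Some named genes are not reported here.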

Additional observations from a re-analysis of the deposited data

How the results depend on the processing

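No paired analysis was possible because each condition has 1 culture library and the groups share no replicate numbers from the labels, the culture fit pairing TGFB1 with vehicle within a ligand by its ligand term alone. Without that term 378 genes were higher, 177 of them nearest genes. The fit of fresh populations already holds the deposited table as a term. Counting vehicle entries within 1000 bp as shared left 3034 gained entries, of which 25.05% overlapped fresh microglia and 40.7% fresh LPM, and gained entries scoring above the median of the TGFB1 list numbered 1829, with 44.1% and 60.5%. The lists of NOD/ShiLtJ gave 21.7% and 30.6%, those of SPRET/EiJ 23.5% and 42.8%, and a cover of at least 50% by the fresh LPM entry gave 51.8%. With no filter on low values limma called 5 genes higher, 2 of them nearest genes, and 0 nearest genes lower. Leaving out each culture library in turn gave 1 to 458 genes higher, 1 to 204 nearest genes higher and 0 to 79 lower. The lowest counts came without the M-CSF and DMSO library, where the prior degrees of freedom were 2.10 and not infinite as in the main fit. Nearest genes higher numbered 89 without IL-34 TGFB1, 123 without IL-34 vehicle, 111 without M-CSF TGFB1 and 76 without M-CSF vehicle. Those higher scores gave 140 higher and 40 lower, a limit of 20 kb gave 58 lower, and isolated entries, an alternative chosen after seeing the data, 47 lower. Genes higher in microglia numbered 169 to 348 without each library in turn, 236 within 20 kb and 217 with the higher scores. The cause was not tested. Of 50 called genes named in the report, 33 lost the call at most with no filter or without the M-CSF and DMSO library, and none of these 50 changed direction under an alternative run. The median log2 fold of the nearest genes, 0.03, was -0.07 without the IL-34 TGFB1 library, and that of all genes, -0.06, was 0.06 without the M-CSF TGFB1 library. Ifngr2, not called, was at -0.05 with limma and 0.02 with edgeR. Of the 222 nearest genes that rose, 221 kept their sign without the M-CSF TGFB1 library, and all 222 did when any other culture library was left out. Single ChIP libraries, a score of unknown scale and the nearest-gene assignment limit what these counts can show.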
